A study of Mus musculus with 12 samples.

Results

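The cytosolic ribosomal protein genes are the genes that encode the proteins of the 40S and 60S subunits of the cytosolic ribosome. They were chosen from the deposited expression table by gene name, as names that start with Rpl or Rps followed by a number with at most a one-letter suffix and a further digit, together with Rplp0, Rplp1, Rplp2 and Rpsa, and without names that carry the pseudogene mark -ps. The rule found 89 of the 36175 genes of the table, of which 36 belong to the 40S and 53 to the 60S subunit. Of these members, 77 are the canonical genes of the ribosome (31 of the 40S and 46 of the 60S subunit) and 12 are paralogues or retrocopies of them. The rule uses names only and no expression value.

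The data are bulk RNA-seq libraries that the authors made from B cells of Peyer's patches (PP), the lymphoid follicles of the small intestine. The mice were male wild-type C57BL/6JHsd animals 10 to 12 weeks old. The 6 stroke mice, labelled Brain injury, had a filament occlusion of the middle cerebral artery for 1 h, and the 6 sham controls, labelled Sham, had the same operation with the filament withdrawn at once. Cells were taken 18 h after surgery, with 1 library of total RNA per mouse. B cells were enriched by magnetic depletion of other cells and then with CD45 beads, and according to the methods the first step left a few epithelial and endothelial cells behind, and nearly all cells were B cells after the CD45 step. The comparison asks whether brain injury changed the level of these genes in the purified cells.

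A ribosome contains 1 copy of nearly every ribosomal protein beside the ribosomal RNAs, and growing cells spend much of their RNA synthesis on making both. The mRNAs of ribosomal proteins carry a run of pyrimidines at their very 5′ end, the 5′ terminal oligopyrimidine (TOP) tract, through which the kinase complex mTORC1 controls how strongly they are translated. B cells that become plasma cells need many ribosomes to make antibody. RNA-seq reads the amount of mRNA and not the translation of it.

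The start of the mRNA was available in the RefSeq promoter table (build GRCm38.p6) for 64 of the 89 members, of which 60 passed the filter on low values used below. The windows shown here reach 15 bases to either side of the annotated start on the sense strand, and the longest run of C or T is in capitals. Where a gene has several annotated starts, the one with the longest run was used. Shown are the member with the longest run, the member with the highest level, the 2 members with the most negative difference between the groups, a protein of the stalk, the 2 members that did not follow the others, and the pairs of Rpl22 and Rps27 with their paralogues.
Rpl7a: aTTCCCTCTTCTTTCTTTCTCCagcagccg
Rpl13a: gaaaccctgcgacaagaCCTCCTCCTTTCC
Rps15a: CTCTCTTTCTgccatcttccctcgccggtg
Rps24: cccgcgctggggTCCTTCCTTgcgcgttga
Rplp2: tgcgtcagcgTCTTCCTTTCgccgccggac
Rpl12: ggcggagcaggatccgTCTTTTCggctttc
Rpl5: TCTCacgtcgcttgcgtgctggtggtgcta
Rpl22: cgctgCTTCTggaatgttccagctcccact
Rpl22l1: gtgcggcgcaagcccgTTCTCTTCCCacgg
Rps27: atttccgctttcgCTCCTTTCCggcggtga
Rps27l: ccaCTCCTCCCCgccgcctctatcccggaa

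The window of Rpl13a lies at chr7:45128731-45128760 (minus strand), that of Rps15a at chr7:118116133-118116162 (minus strand), that of Rps24 at chr14:24490663-24490692 (plus strand) and that of Rpl12 at chr2:32961697-32961726 (plus strand). A run of at least 8 pyrimidines was found in 27 of the 60 windows of members that passed the filter, which is 45%. The same search found one in 13.9% of all 27025 genes of the promoter table and in 14.6% of the 9146 genes that passed the filter and had an entry. The longest run was 21 bases, in Rpl7a. Rpl22 held a longest run of 5 bases, whereas its paralogue Rpl22l1 held one of 10. A run in this window is a description of the letters around an annotated start and does not show where transcription began in these cells. The complementary strand was not searched, because the tract is defined on the mRNA.

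Each gene has in the deposited table a normalised signal that is labelled as TPM, a unit that is scaled for transcript length and library size. The columns summed to between 559570 and 1404340, with the lowest sum in sham control 6. The number of reads behind the values is unknown. The B cell markers Cd79a, Cd79b, Ms4a1, Pax5 and Blk were at 96.3 or more in every mouse. The 6 epithelial markers differed widely between mice, with a summed signal of 8.68 to 1343 in sham controls and 11.1 to 673 in stroke mice, and all 6 were above 0 in every mouse. Of the 5 endothelial markers, Pecam1 was at 77.1 or more, whereas Cdh5, Kdr, Tek and Emcn did not exceed 2.93. In bulk RNA, a smaller share of a cell type and less RNA per cell cannot be told apart.

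The members together took 4.18% to 9.27% of all signal in sham controls, with a median of 7.88%, and 5.37% to 10.2% in stroke mice, with a median of 7.07%. Sham controls had a mean share of 7.52% ± 1.89 (SD, n = 6), and stroke mice had one of 7.18% ± 1.75 (SD, n = 6). The ranges overlapped over most of their length, and the highest share was in stroke mouse 1 and the lowest in sham control 6. The total used here included the 5 genes with the highest mean signal, among them Gm12895 and Gm12896, whose values were equal (within a relative difference of 1e-06) in 11 of the 12 mice. These 5 took 10.7% of the total in sham control 6 and up to 42.7% in sham control 1, and at most 30.8% in stroke mice. With them left out of the total, an alternative chosen after the data had been seen, the share was 4.68% to 14.9% in sham controls and 7.07% to 13.9% in stroke mice. The difference between the means was then -1.24 percentage points instead of -0.34, the highest share was in sham control 2, and the ranges still overlapped.

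The summed signal of the members varied far more than the share. Sham controls 1 to 6 had sums of 110146, 128533, 83220, 73745, 62073 and 23412. Stroke mice 1 to 6 had sums of 103936, 66417, 74662, 54898, 43544 and 48377. The highest sham control therefore had 5.49 times the signal of the lowest, and the highest stroke mouse 2.39 times that of the lowest. The means were 80188 ± 36979 (SD) and 65306 ± 22134 (SD), so the difference of -14883 was smaller than the SD of either group. Without sham control 6 the difference was -26238, and without sham control 2 it was -5214. The difference in the share was -0.34 percentage points with all mice, -1.01 without sham control 6, -0.94 without stroke mouse 1, and 0.02 without stroke mouse 5.

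**Figure D1:**
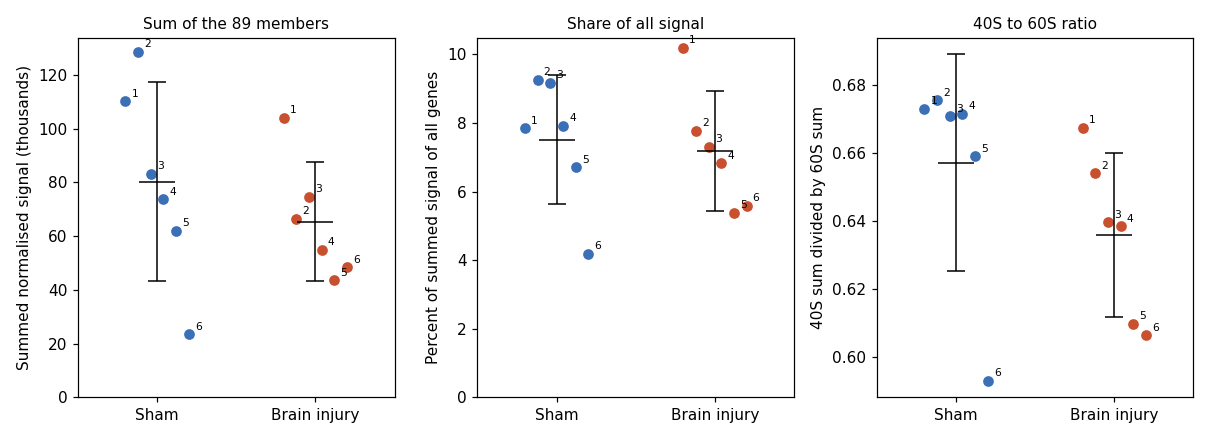
Summed normalised signal of the 89 members, their percentage of the signal of all genes, and the ratio of the 40S sum to the 60S sum, with 1 point per mouse numbered by replicate, the group mean as a bar and the SD as whiskers. The groups overlap in all 3 panels, and sham control 6 is the lowest mouse in each (23412, 4.18% and 0.593).

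The members of the 2 subunits moved together. The 40S members summed to 0.593 to 0.675 of the 60S members in sham controls, with a median of 0.671, and to 0.607 to 0.667 in stroke mice, with a median of 0.639. In 5 of the 6 sham controls the ratio was between 0.659 and 0.675, and in sham control 6 it was 0.593. The means were 0.657 ± 0.032 and 0.636 ± 0.024 (SD), and the ranges overlapped. Without sham control 6 the difference was -0.034 instead of -0.021, and 5 of the 6 stroke mice then lay below every remaining sham control. The ratio was higher in mice with a higher mean log2 signal of the members (Pearson r = 0.90 and Spearman rho = 0.90 over 12 mice, r = 0.85 over the 11 mice without sham control 6), a description that shares the same members on both axes.

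For the comparison by gene, 0.5 was added to each value before taking log2, and limma was run on the 12590 genes that reached 1 in each of the 12 mice. Of the members, 80 passed this filter, 32 of the 40S and 48 of the 60S subunit. At an unadjusted p under 0.05, 0 members were higher and 0 were lower in stroke mice, where 4.42% of all tested genes were higher and 1.69% lower. At an adjusted p under 0.05 there were 0 members, and 0% of all genes. In 0 members did the groups lie apart without overlap, against 0.349% of all genes that lay wholly higher and 0.0874% that lay wholly lower in stroke mice. The smallest unadjusted p of a member was 0.246 and its adjusted p 0.832, both for Rps15a.

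The direction of the estimates was nevertheless shared. The log2 fold change was negative in 75 of the 80 members, against 48.6% of all tested genes, and the median was -0.19, against 0.01 for all genes. All 32 members of the 40S subunit had a negative value (median -0.22), and 43 of the 48 of the 60S subunit did (median -0.17). Because the members vary together across mice, the count of negative values is not a count of 80 independent observations. Rescaling each mouse to the same total left 56 negative values, with the median of all genes shifted to 0.13 and a difference between the median of the members and that of all genes of -0.19, against -0.20 as deposited. Quantile normalisation left 49 negative values, leaving out sham control 2 left 46, and array weights gave 80. The same difference between the medians was -0.049 with quantile normalisation, -0.050 without sham control 2, -0.30 with array weights and -0.47 without sham control 6, so its size depended on the scaling and on single mice.

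The intervals show what size of change these 12 mice could have hidden. The median 95% interval of a member reached from -0.97 to 0.60 on the log2 scale, and in 46 of the 80 members the whole interval lay within 1 of 0. The interval thus leaves room for a change in either direction for each member, and the absence of calls does not show that the levels were equal.

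The result depended on sham control 6. Without this mouse, 27 of the 80 members were lower in stroke mice at an unadjusted p under 0.05, 15 of the 40S and 12 of the 60S subunit, which is 33.8% of them against 9.20% of all tested genes. All 80 members then had a negative log2 fold change, with a median of -0.49. The smallest adjusted p of a member was 0.259 in limma, so none passed the adjusted threshold. This mouse was left out after its values had been seen, and the labels give no reason to set it apart. The members lower without it included Rps15 (log2 fold change -0.65), Rps14 (-0.72), Rpl10 (-0.67) and Rps19 (-0.60), with adjusted p-values of 0.259 to 0.283 in limma. Background on Rps19 is that its human counterpart is the gene most often mutated in Diamond-Blackfan anaemia.

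**Figure D2:**
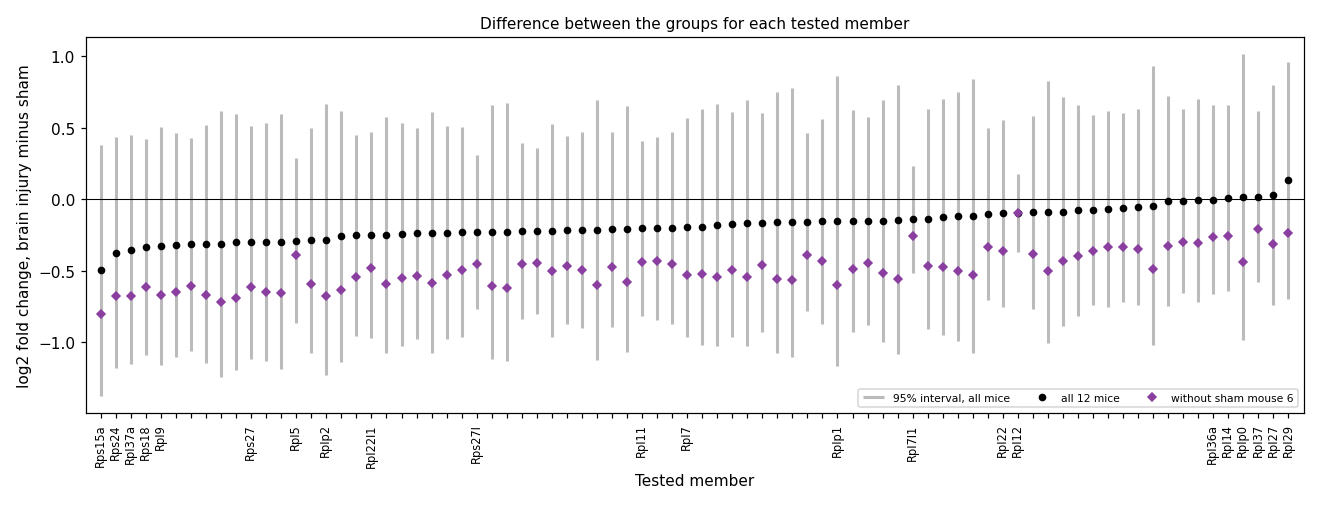
Log2 fold change (brain injury minus sham) of each of the 80 tested members, ordered by its value, with some of the genes of the text labelled, all 12 mice as circles with 95% intervals as bars, and without sham control 6 as diamonds. Every bar crosses 0. Without this 1 mouse the values lie between -0.80 for Rps15a and -0.09 for Rpl12, and all but that of Rpl12 are lower than with the 12 mice.

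Across mice the members varied together. The mean correlation between 2 members over the 12 mice was 0.94, whereas that between 2 tested genes was 0.03, and 78 of the 80 members had a correlation over 0.9 with the mean of the others. The members also varied more than most genes, with a median SD of 0.67 on the log2 scale against 0.31 for all tested genes, and only 7.44% of the tested genes exceeded that median. Sham control 6 was the lowest of the 12 mice in 78 members and sham control 2 the highest in 78. Of all tested genes, 27.2% were lowest in sham control 6 and 20.0% highest in sham control 2. Rpl12 and Rpl5 were the exceptions at the low end, and Rpl12 and Rpl36a those at the high end.

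**Figure D3:**
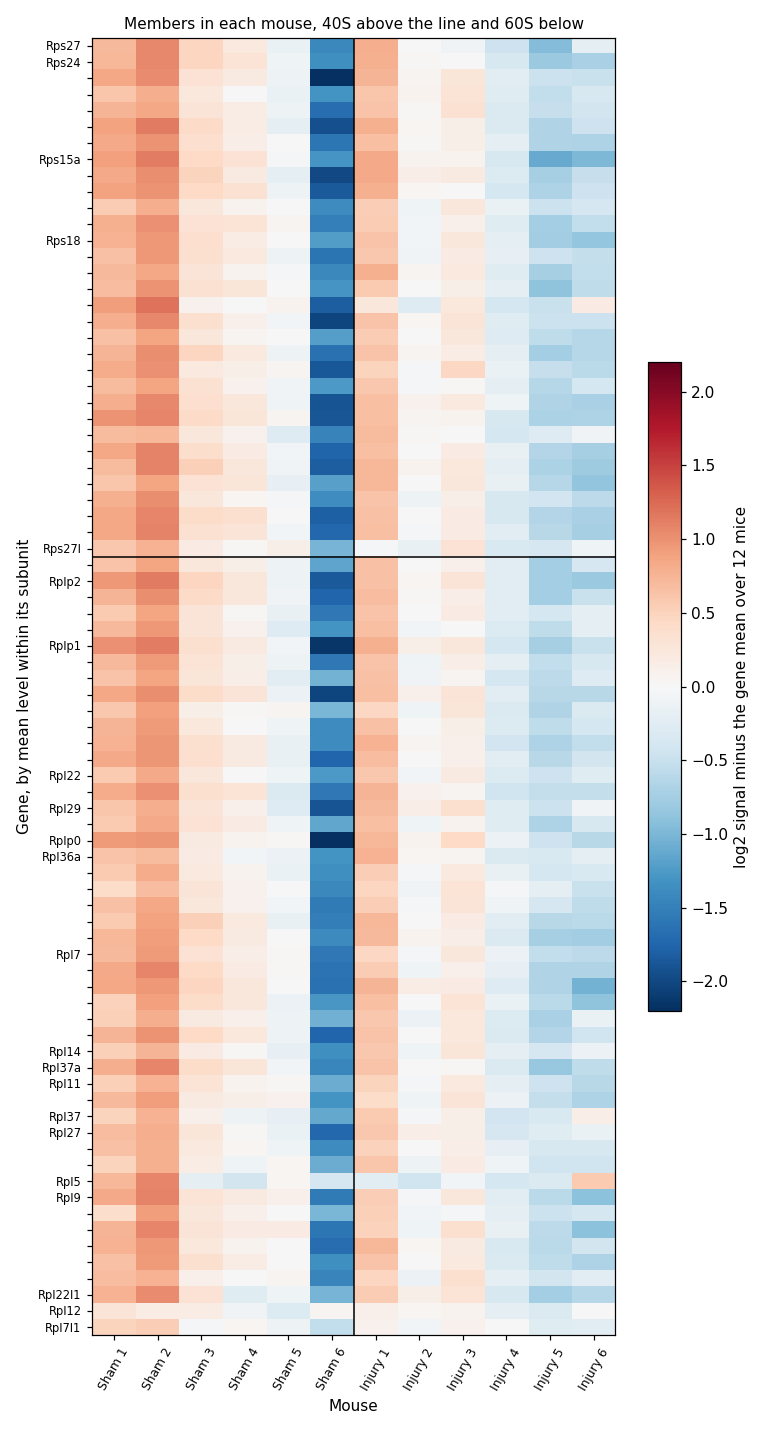
Log2 signal of the 80 tested members in each mouse, centred on the mean of the gene over 12 mice, with some of the genes of the text labelled, the 40S members above the horizontal line and the 60S members below it, and sham controls left of the vertical line. Columns are nearly uniform in colour, with sham control 6 lowest and sham control 2 highest, and Rpl12 and Rpl5 break the pattern.

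Some other measures of the samples moved with the level of the members and some did not. The mean log2 signal of the members was higher where the column sum was higher (Spearman rho = 0.88 over 12 mice), where the summed signal of the 6 plasma cell markers was higher (rho = 0.95), and where that of the 6 epithelial markers was higher (rho = 0.73). It was also higher with the summed B cell markers (rho = 0.69), the summed macrophage and dendritic cell markers (rho = 0.70) and the share of the 5 genes with the highest mean (rho = 0.80), and lower where the share of mitochondrially encoded genes was higher (rho = -0.78). Without sham control 6 these values were, in the same order, 0.85, 0.94, 0.65, 0.61, 0.61, 0.74 and -0.82. Over the 12 mice the level followed less closely the summed markers of T cells (rho = 0.57) and neutrophils (rho = 0.38) and the share of immunoglobulin genes (rho = 0.29). For markers of cycling cells rho was -0.091, for erythroid cells -0.23, and for germinal centre B cells and endothelial cells -0.31 each. The plasma cell markers summed to 295 to 1486 in sham controls and 372 to 1085 in stroke mice, with none at 0 in any mouse. Jchain was the highest of these markers in every mouse (83.6 to 969) and weighs most in the sum. The sum does not stand for each marker, since Prdm1 was at 8.79 in sham control 6 and at 6.13 in sham control 5. The mitochondrial share was 2.13% to 5.11% in sham controls and 3.39% to 7.49% in stroke mice. These are descriptions over the same libraries, and the part of depth, RNA quality or cell content in the level of the members was not tested.

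To compare the members with each other and not with the rest of the RNA, each mouse was also centred on its mean over the 80 members, an alternative chosen after the data had been seen. On this scale 0 members were higher and 0 lower at an unadjusted p under 0.05, against 0.469% and 0.207% of all tested genes. The furthest members were Rps15a at -0.32 and Rpl29 at 0.31, with unadjusted p-values of 0.233 and 0.221 in limma. Without the centring, 4.42% of all tested genes were higher and 1.69% lower. Centring puts the spread of the members onto the other genes, and limma shares its variance estimate over all of them. These p-values therefore cannot show whether a member moved apart from the others between the groups.

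Among the members of the 40S subunit, Rps15a (chr7:118104372-118116188, minus strand) had the most negative log2 fold change. Its signal was 435 to 2334 in sham controls with a median of 1386, and 494 to 1893 in stroke mice with a median of 975. The highest value was in a sham control, but the stroke mice lay within the range of the sham controls. The log2 fold change was -0.49 ± 0.41 (SE), and leaving out 1 mouse at a time gave values from -0.80 to -0.32.

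Rps24 (chr14:24487125-24496959, plus strand), a further protein of the 40S subunit, was the next most negative at -0.37 ± 0.37 (SE). It lay between 682 and 3629 in sham controls and between 982 and 2977 in stroke mice, so the groups overlapped. Rps18 followed at -0.33 ± 0.35, and of the 60S members Rpl37a was at -0.35 ± 0.37 and Rpl9 at -0.33 ± 0.39. Rpsa, which outside the ribosome is known as a laminin receptor precursor, and Rps29 had some of the largest SDs over all mice, of 0.85 and 0.84 on the log2 scale.

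At the other end, Rpl29 (chr9:106429454-106431568, plus strand) had the most positive log2 fold change of 0.13 ± 0.39 (SE). Its signal was 218 to 1412 in sham controls with a median of 935, and 589 to 1337 in stroke mice with a median of 834. The positive sign rested on sham control 6, the lowest of the 12 mice, since the value was -0.23 without it. Rpl27, Rpl37, Rplp0 and Rpl14 were the other members with a positive value (0.03, 0.02, 0.02 and 0.01), and all 4 were negative without sham control 6.

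Levels are set side by side here on the label of the values as TPM, a unit scaled for transcript length, and that scaling was not checked. Rpl13a (chr7:45125558-45128761, minus strand), a protein of the 60S subunit, was the highest, at 1378 to 5581 in sham controls and 1831 to 4799 in stroke mice. Rplp2, Rpl23a and Rpl26 were also among the 5 highest on their own rows, without the copies described below. Of the 77 canonical members, 76 had a mean signal over 100, and 27 of the 80 tested members were over 1000.

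The lowest of the tested members were the 3 paralogues Rps27l, Rpl7l1 and Rpl22l1 (means of 36.8, 51.6 and 67.0 over 12 mice) and, as the only canonical members among the 5 lowest, Rpl12 (57.8) and Rpl28 (218). The canonical members thus spanned 57.0-fold between Rpl13a and Rpl12.

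The low value of Rpl12 was set beside near-identical copies. Ribosomal protein genes have left many retrocopies in the genome, and a read from the mature mRNA can be assigned to any copy that shares its sequence. The coding sequence of each member, or the whole transcript of pseudogene members without one, was therefore compared with all transcripts of GENCODE release M21. Copies were the genes, other than members, that matched this sequence at 95% identity or more over at least 80% of its length. The table holds 549 such genes, and 73 of the 80 tested members had at least 1. Members and copies together took 4.78% to 10.5% of all signal in sham controls and 6.03% to 11.5% in stroke mice. Copies took 9.04% to 12.6% of this joint signal in the 12 mice.

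For 45 of the 80 members, less than 1% of the joint signal lay on copies, and for 7 members more than 50% did. In Rpl12, which binds the base of the stalk on the 60S subunit, 94.8% of the joint signal lay on copies, nearly all of it on Gm10275, which matches the coding sequence of Rpl12 at 100% identity and had a mean of 1046. In Rps23, a protein of the decoding centre, 79.6% lay on copies, mainly Rps23-ps1 with a mean of 2085. In Rpl5, 76.8% lay on copies, mainly Gm15500 with a mean of 1223 and 100% identity. The share was 72.7% in Rpl27a, 65.5% in Rps12, 62.3% in Rpl28 and 59.9% in Rpl31. The rows of these 7 genes, and of the copies, are therefore uncertain as levels of single genes.

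**Figure D4:**
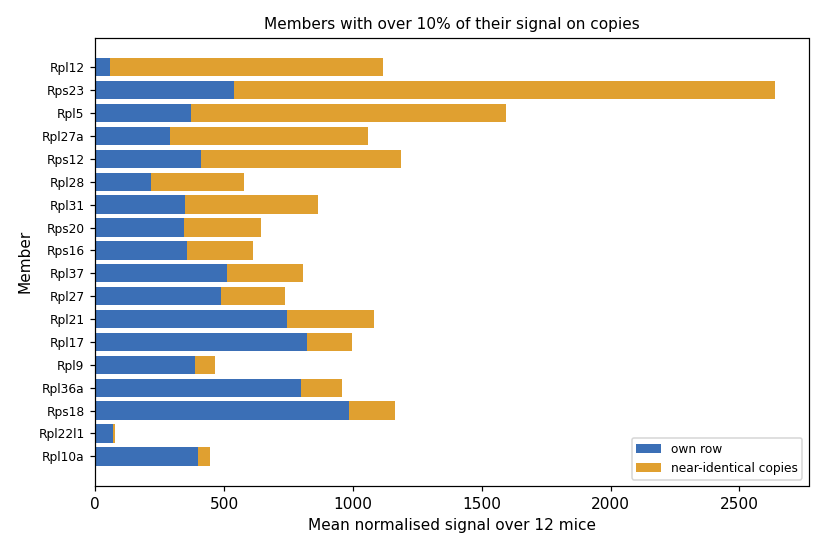
Mean normalised signal over 12 mice on the own row of a member and on the rows of its near-identical copies, for the 18 tested members with over 10% of the joint signal on copies. The copies exceed the own row in 7 members, from Rpl31 (59.9%) up to Rpl12 (94.8%).

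Rpl12 and Rpl5 were the members whose own rows did not follow the rest (r = 0.48 for both with the mean of the other members over 12 mice). The own row of Rpl12 was flat, at 46.7 to 70.0 in sham controls and 46.0 to 62.3 in stroke mice, with an SD of 0.19 on the log2 scale, the smallest of the members. Added to its copies, Rpl12 had 358 to 1945 in sham controls and 707 to 1685 in stroke mice. The sum had an SD of 0.68 and a correlation of 0.99 with the other members. For Rpl5 the own row lay between 264 and 731 in sham controls and between 257 and 519 in stroke mice, and the sum with copies, at 619 to 2692 and 1170 to 2059, had a correlation of 0.99 with the others.

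With copies added, Rps23 became the third highest member at 2637 and Rpl26 left the 5 highest. On this joint signal, all 80 members had a correlation over 0.9 with the others, the lowest being 0.91. The canonical members then spanned 9.39-fold, from Rpl39 at 352, against 57.0-fold on their own rows. The median log2 fold change of the members stayed at -0.19 and the number at an unadjusted p under 0.05 at 0. Rpl37 and Rpl27, 2 of the 5 members with a positive value on their own rows, were at -0.18 and -0.26 with copies added.

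**Figure D5:**
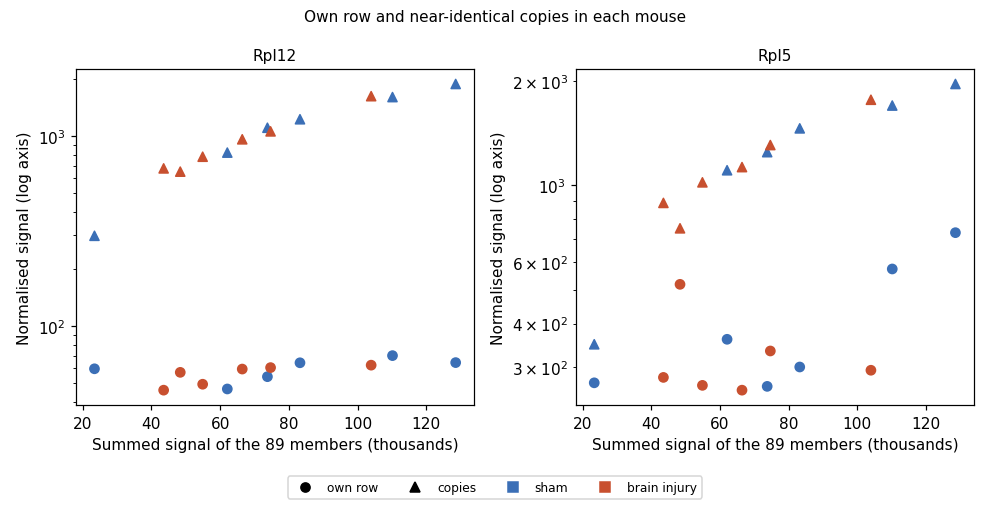
Normalised signal of the own row (circles) and of the near-identical copies (triangles) of Rpl12 and Rpl5 in each mouse on a log axis, against the summed signal of the 89 members. The copies climb with the sum in both groups, from 299 in sham control 6 to 1881 in sham control 2 for Rpl12, whereas the own row of Rpl12 stays between 46.0 and 70.0.

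The stalk of the 60S subunit, made of Rplp0 as the anchor and of Rplp1 and Rplp2, recruits the translation factors that hydrolyse GTP. Rplp1 was at 432 to 4159 in sham controls with a median of 2315 and at 1150 to 3300 in stroke mice with a median of 1776. Rplp0 was at 158 to 1505 in sham controls and at 500 to 1276 in stroke mice. Their SDs over all mice were among the largest of the members, at 0.89 for Rplp1, 0.87 for Rplp0 and 0.84 for Rplp2 on the log2 scale. The log2 fold changes were -0.15 ± 0.47, 0.02 ± 0.46 and -0.28 ± 0.44 (SE), and the groups overlapped in all 3.

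Rpl5 and Rpl11 form a particle with the 5S ribosomal RNA, which when not built into ribosomes can bind Mdm2 and thereby stabilise p53. Rpl11 was at 239 to 865 in sham controls with a median of 583 and at 332 to 714 in stroke mice with a median of 469, a log2 fold change of -0.20 ± 0.28 (SE). The own row of Rpl5 was at -0.29 ± 0.27, and at -0.12 with copies added. Neither gene had groups that lay apart.

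The paralogues were compared with their partners as a ratio in each mouse, a comparison chosen after the data had been seen. Rpl22l1 was at 4.95% to 7.03% of Rpl22, a protein needed for normal lymphocyte development, in sham controls with a median of 6.61%, and at 4.65% to 6.86% in stroke mice with a median of 5.82%. The groups overlapped, and an exact two-sided permutation test over the 924 assignments of the mice gave p = 0.206 (0.411 adjusted over 4 pairs). Rps27l, which is known as a target of p53, was at 1.57% to 2.50% of Rps27 in sham controls and at 1.08% to 2.88% in stroke mice (p = 0.784 in the same exact test, 0.866 adjusted).

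Rpl7l1 was at 5.86% to 15.8% of Rpl7 in sham controls and at 5.98% to 9.72% in stroke mice (exact permutation p = 0.866, 0.866 adjusted). The value of 15.8% was that of sham control 6, and the other 5 sham controls did not exceed 7.22%. Rpl7l1 varied less between mice than Rpl7 (SDs of 0.30 and 0.67 on the log2 scale), and this ratio was lowest in sham control 2 and highest in sham control 6. Rpl36al, a paralogue outside the name rule, was at 38.4% to 52.9% of Rpl36a in sham controls with a median of 43.0% and at 26.4% to 41.6% in stroke mice with a median of 36.0%. The log2 difference in this ratio was -0.34, the exact permutation p was 0.0173 and 0.0693 adjusted over the 4 pairs, so it did not pass the correction, and the groups overlapped. Of the signal of Rpl36a and its copies, 16.7% lay on copies.

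Members that did not pass the filter numbered 9, all paralogues or retrocopies. They were Rpl3l, Rpl10l, Rpl39l, Rpl6l, Rpl32l, Rps4l, Rps12l1, Rps3a2 and Rps3a3. Rpl3l is known from skeletal and heart muscle, and Rpl10l and Rpl39l from testis. Rpl10l was listed at 0 in 10 of the 12 mice and Rpl39l in 6, and Rpl3l did not exceed 0.945 in any mouse. Rps4l was the highest of the 9, at 0.689 to 6.17 in sham controls and 0.721 to 6.43 in stroke mice. Rps12l1 stood at 4.52 in stroke mouse 3 and did not exceed 0.127 in any of the other 11 mice, while 99.9% of the joint signal of this gene and its copies lay on the copies.

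Properties that the name rule did not use were also shared. According to GENCODE release M21 on GRCm38, 83 of the 89 members are protein coding and 6 are pseudogenes, and the 80 tested members lie on 19 chromosomes, with 14 on chromosome 7 and 4 on X. Small nucleolar RNAs, which guide the modification of ribosomal RNA, lie within 30 of the 80 tested members (37.5%), against 1.56% of all tested genes found in the annotation. The median coding length was 462 bases, against 1330.5 for tested genes with a coding sequence. Host genes of small nucleolar RNAs and the other members had median log2 fold changes of -0.19 and -0.19, and members with and without a pyrimidine run of at least 8 bases had -0.23 (27 members) and -0.16 (33 members).

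The ribosome proteins Rack1 and Fau, whose names fall outside the rule, were taken with the rest of the translation pathway, of which 72 of 73 listed genes were tested. Rack1, a signalling scaffold on the 40S subunit, was at 179 to 934 in sham controls and 328 to 722 in stroke mice (log2 fold change -0.18 ± 0.35, SE). Fau, which encodes a 40S protein fused to a ubiquitin-like protein, was at 390 to 3004 in sham controls and 795 to 2155 in stroke mice (-0.35 ± 0.42, SE). Both genes had values within the range of the members and groups that overlapped. Without sham control 6 both were lower at an unadjusted p under 0.05 in limma, with log2 fold changes of -0.75 for Fau and -0.50 for Rack1.

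Of 17 translation factors and other genes with TOP mRNAs, 0 were higher and 0 lower at an unadjusted p under 0.05, with a median log2 fold change of -0.11, and 6 were lower without sham control 6. Of 32 initiation factors, 1 was lower and 0 were higher, and 6 were lower without sham control 6. Of all tested genes, 1.69% were lower and 4.42% higher, and 9.20% were lower without sham control 6. The 1 gene was Eif4a2, a helicase that unwinds the 5′ end of mRNAs, at 509 to 987 in sham controls with a median of 601 and 408 to 563 in stroke mice with a median of 487. Its log2 fold change was -0.50 ± 0.18 (SE), with an unadjusted p of 0.0148 and an adjusted p of 0.748 in limma, and the groups overlapped.

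Of 20 tested regulators of the translation of TOP mRNAs, 2 were higher and 0 lower at an unadjusted p under 0.05, against 4.42% and 1.69% of all tested genes. Sesn1, a sestrin that restrains mTORC1, was at 24.9 to 48.6 in sham controls with a median of 33.9, and at 40.02 to 263 in stroke mice with a median of 82.9. Its log2 fold change was 1.28 ± 0.36 (SE), with an unadjusted p of 0.0032 and an adjusted p of 0.716 in limma. Ddit4, a stress-induced inhibitor of mTORC1, was at 6.66 to 33.0 in sham controls and 23.3 to 45.8 in stroke mice. The log2 fold change of Ddit4 was 0.81 ± 0.36, with an unadjusted p of 0.0430 and an adjusted p of 0.791 in limma. Without sham control 6 the log2 fold change of Sesn1 was 1.24 and that of Ddit4 0.52, and only Sesn1 kept an unadjusted p under 0.05. Of the 20 regulators, 1 was then higher and 2 were lower (Mlst8 and Rheb), against 7.44% and 9.20% of all tested genes, so these counts lay near the background. The groups overlapped in both genes, and none of the 72 pathway genes passed the adjusted threshold.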

How the data were processed

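RNA-seq libraries of PP B cells from 6 sham controls and 6 stroke mice were used, grouped by the sample labels. According to the submitters' processing notes and the methods, the authors checked reads with FastQC, used Trimmomatic 0.39 for trimming and kallisto 0.48.0 on GRCm38 for transcript abundance, and ran sleuth 0.30.0 in R 4.1.2. The deposited values are a signal per gene labelled as normalised TPM, whose column sums differ, so they were treated as a signal although the design had assumed TPM, and the read depth is unknown. kallisto shares reads between transcripts of equal sequence, which bears on genes with copies.

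limma 3.58.1 (R 4.3.3), with no block, was run on log2(value + 0.5) of the 12590 genes that reached 1 in each mouse. Adjusted p-values are by the Benjamini-Hochberg method over these 12590 genes. The test was checked on simulated data. Copies were found with BLASTN of BLAST+ 2.17.0. Single ratios were compared with exact permutation tests. Alternatives were pseudocounts of 0.1 and 1, other filters, rescaling, quantile normalisation, a replicate block, an intensity trend, array weights and leaving out each mouse. Genes named were those at the extremes of level, difference and spread, members that failed the filter, the stalk and 5S proteins, paralogue pairs, Rack1, Fau and pathway genes at an unadjusted p under 0.05. A few genes that were named this way are left out of the text. The members and gene lists were chosen with earlier results of these data known.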

Additional observations from a re-analysis of the deposited data

Results flagged for a closer look

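A value was set apart here where, within a group of 6, the gap between the highest or lowest mouse and its neighbour exceeded a fixed share of the range of the group. Chance gives such a gap in about 1 in 20 groups, and 66 groups were examined, many of which share the same mice and rise and fall together. In sham control 6 the ratio of the 40S to the 60S sum was 0.593, Rpl7l1 stood at 15.8% of Rpl7, and low outlying signals were found for Rpl9 (118), Rplp0 (158), Rpl27 (136), Rplp1 (432), Rpl7 (219) and Rack1 (179). Rpl5 in stroke mouse 6 (519, own row without copies) and Rpl36a in stroke mouse 1 (1267) were high. The causes were not tested.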

How the results depend on the processing

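Other pseudocounts, filters, median-of-ratios scaling and an intensity trend left 0 members at an unadjusted p under 0.05. Members with a negative log2 fold change numbered 75 as reported, 49 with quantile normalisation and 80 with array weights (median -0.31), and leaving out 1 mouse gave 46 to 80. With each mouse centred on the members the number was 41, which the centring itself sets near the middle. Leaving out 1 mouse, members lower numbered 0 to 27 and higher 0 to 0, the median was -0.49 to -0.02, and the difference in the share was -1.01 to 0.02 points, in the 40S to 60S ratio -0.034 to -0.015 and in the sum -26238 to -5214. Pathway genes higher numbered 2, but 1 without a filter, with a filter on the mean or with array weights. Pathway genes lower numbered 1, but 2 after rescaling or median-of-ratios, 3 with quantile normalisation, 5 with array weights and 0 when centred, and leaving out 1 mouse gave 1 to 2 higher and 1 to 17 lower, the 17 without sham control 6.

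The replicate numbers do not pair the mice by label, and same-numbered mice had correlations of 0.01 to 0.49, with 4 of the 12 mice correlated best with their own number. With the number as a replicate block, 1 member was lower (Rps15a, adjusted p = 0.509 in limma) and 3 pathway genes were. All tested genes higher and lower numbered 557 and 213, 770 and 404 with the block, 866 and 703 with array weights, 1418 and 350 without a filter, 348 and 69 after rescaling, 378 and 327 with quantile normalisation, 59 and 26 when centred, 937 and 1158 without sham control 6, and 396 to 937 and 144 to 1158 leaving out 1 mouse.

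Signs of small, uncalled values changed, in 19 of the 80 members with rescaling, 26 with quantile normalisation, 34 with centring and 2 with copies added. Of the genes named, rescaling gave Rpl22 0.029, Rpl36a 0.12 and Rpl12 0.030. Quantile normalisation gave Rack1 0.0092, Rpl22 0.040 and Rpl36a 0.15. Array weights gave Rpl14 -0.13, Rplp0 -0.17, Rpl37 -0.12, Rpl27 -0.18 and Rpl29 -0.093. Centring gave Rplp1 0.025, Rpl22 0.080, Rpl36a 0.17, Rpl7l1 0.040 and Rpl12 0.082, and adding copies gave Rpl37 -0.18 and Rpl27 -0.26. Rpl23a, Rpl28, Rpl39, Rps23, Rps29 and Rpsa also turned positive under rescaling, quantile normalisation and centring, the highest being Rps23 at 0.19 with quantile normalisation, and Rpl26 did under centring. Leaving out 1 mouse, Rpl14 ranged from -0.26 to 0.16, Rpl22 from -0.36 to 0.058, Rpl27 from -0.31 to 0.19, Rpl29 from -0.23 to 0.30, Rpl36a from -0.26 to 0.14, Rpl37 from -0.20 to 0.18, Rplp0 from -0.44 to 0.21 and Rplp1 from -0.60 to 0.056. Centring on the members and adding copies were chosen after seeing the data. The causes were not tested. The read depth is unknown, so the counting error of low members could not be given.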
